A study of Mus musculus with 29 samples.

Results

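The 10 genes described here encode the chemokines that sort lymphocytes into the compartments of a lymphoid organ, the receptors that read them, and the lymphotoxins that switch these chemokines on. They were chosen by name, and all 10 were found among the 13982 genes of the table. They are the ligands Cxcl13, Ccl19, Ccl21a and Cxcl12, the receptors Cxcr5, Ccr7 and Cxcr4, the lymphotoxins Lta and Ltb, and their receptor Ltbr. RNA was measured by Ion Torrent sequencing in 14 libraries of (NZBxNZW)F1 mice (NZB/W), a cross that develops a lupus-like nephritis with age. From proteinuric mice there were 4 kidney libraries (mouse H6 at 39 weeks, mouse H20 at 36 weeks, mouse H115 at 25 weeks and mouse H117 at 32 weeks), 3 libraries of tertiary lymphoid structures (TLS; mice H6, H20 and H115) and 3 lymph node libraries (mice H6, H20 and H117). TLS are lymphoid aggregates that form in an inflamed organ, and these were cut by hand from the kidney under a loupe, while the kidney libraries came from kidney tissue, in mice H6, H20 and H115 beside a TLS library of the same animal. The lymph nodes, which drain the kidney, also gave 3 libraries of mice with anti-dsDNA antibodies (28, 29 and 18 weeks) and 1 library of a young mouse (4 weeks). All mice carried the same F1 background and the labels name no treatment for these libraries. The libraries were made from tissue and not from sorted cells.

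CXCL13 draws B cells, which carry CXCR5, into follicles. CCL19 and CCL21 draw T cells and mature dendritic cells, which carry CCR7, into the T-cell zone, and CCL21 is also made by lymphatic vessels and high endothelial venules. CXCL12 and its receptor CXCR4 hold cells in stromal niches and act in the dark zone of germinal centers. Lymphotoxin alpha and beta are made by lymphocytes and signal as a complex through the lymphotoxin beta receptor on stroma, which turns on the follicular and T-zone chemokines through NF-kB. In ectopic lymphoid tissue the same genes are used as a signature.

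The stretches upstream of 4 members chosen by name are printed, the chemokines Cxcl13, Ccl19 and Ccl21a and the ligand Ltb. Each was higher in TLS than in kidney, as described below. Cxcr4 was too, but its stretch is not printed. RefSeq promoters (GRCm38.p6, 250 bases before the start) were found for 8 of the 10 members. Of these stretches only bases outside the exons of the GENCODE M21 annotation are printed, 5′ to 3′ on the strand of the gene, with capitals marking a match to either of the motifs searched.
Cxcl13, chr5:95956689-95956938, plus strand: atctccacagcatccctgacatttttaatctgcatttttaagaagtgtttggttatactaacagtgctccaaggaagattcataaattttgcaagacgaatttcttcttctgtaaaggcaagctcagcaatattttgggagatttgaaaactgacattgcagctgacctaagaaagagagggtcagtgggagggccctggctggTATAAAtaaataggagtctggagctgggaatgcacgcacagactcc
Ccl19, chr4:42756578-42756615, minus strand: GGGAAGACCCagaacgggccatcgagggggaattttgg
Ccl21a, chr4:42773994-42774241, minus strand: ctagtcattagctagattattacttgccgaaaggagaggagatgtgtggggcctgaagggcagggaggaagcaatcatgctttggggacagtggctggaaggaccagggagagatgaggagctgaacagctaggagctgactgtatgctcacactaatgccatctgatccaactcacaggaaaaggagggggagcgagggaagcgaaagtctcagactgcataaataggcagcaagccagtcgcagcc
Ltb, chr17:35194257-35194438, plus strand: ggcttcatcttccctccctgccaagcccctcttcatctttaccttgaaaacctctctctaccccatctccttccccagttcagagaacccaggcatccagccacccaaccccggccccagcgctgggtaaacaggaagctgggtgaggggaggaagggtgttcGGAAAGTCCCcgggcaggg
The motifs searched on both strands of the 250 bases were a form of the NF-kB element (GGG, any 2 bases, TT, any base, CC) and TATAAA, the core of a TATA box, and no promoter of a member held both. The NF-kB form was present in 2 of the 8 promoters, those of Ccl19 (first base at -250) and Ltb (at -87), each read on the opposite strand. Over the RefSeq table it was present in 4.11% of the 32851 promoters. Positions are relative to the RefSeq start. Of the 250 bases, 212 of Ccl19 and 68 of Ltb lie in GENCODE exons of the same gene, so the GENCODE starts lie farther upstream. TATAAA was present in 3 of the 8, those of Cxcl13 (at -46), Cxcr4 and Lta (at -167), and in 12.4% of all promoters. A match is a description of the letters and not of binding.

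The recovered reads per library were between 343825 and 443379, and 3 reads divided by the size factor of a library came to between 2.36 and 5.32. Kidney of mouse H117, lymph node of mouse H6 and TLS of mouse H115 stood apart by many ribosomal RNA reads, which left between 152422 and 334226 reads on other genes, and calls of named genes that changed without these 3 libraries are given beside them. Values below are normalized: 1 was added to the reads of a gene and the sum was scaled by the size factor of its library. Differences are tested with limma on the log2(value + 1) scale and pass where p, adjusted over all genes tested, is under 0.05. Limits from 3 reads set the mean of the higher group against 3 reads in the lower one. They are not confidence limits and do not cover the spread between animals. The levels are of bulk RNA, in which more cells of a type and more RNA per cell cannot be told apart.

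The 3 chemokines of the T-cell zone and follicle were near the floor in kidney and well above it in TLS and lymph nodes, but Ccl21a followed another course than Cxcl13 and Ccl19. Ccl21a (chr4:42772860-42773993, GRCm38) had values of 3.54, 10.97, 4.64 and 1.77 in kidney of mice H6, H20, H115 and H117, of 46.6, 22.8 and 14.2 in TLS of mice H6, H20 and H115, and of 419, 930.3 and 535 in lymph node of mice H6, H20 and H117. The 3 tissues did not overlap, and the step from TLS to lymph node was the larger of the steps. In lymph nodes of antibody-positive mice Ccl21a had values of 906, 835 and 813, and in the young lymph node 788, so each of the 7 lymph node libraries lay above each TLS library. The difference of kidney minus TLS was -2.26 (SE 0.52, adjusted p = 0.0120) on the log2(value + 1) scale, and that of lymph node minus TLS was 4.52 (SE 0.56, adjusted p = 0.000210). Of the 7382 genes tested, only 3 had a larger log2 change toward lymph node against TLS than Ccl21a, which ranked 4. Without TLS of mouse H6, kidney minus TLS was -1.82 and no longer passed (adjusted p = 0.0759), while the difference of lymph node and TLS passed in each alternative tried.

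Ccl19, the other ligand of CCR7 (chr4:42754525-42756577), had values of 6.19, 3.37, 1.16 and 10.6 in kidney of mice H6, H20, H115 and H117. It reached 153, 61.3 and 33.8 in TLS of mice H6, H20 and H115 and 174, 154 and 119.8 in lymph node of mice H6, H20 and H117. TLS of mouse H6 was as high as the lymph nodes, and the groups of TLS and lymph node overlapped. Kidney minus TLS was -3.71 (SE 0.58, adjusted p = 0.00131), and lymph node minus TLS was 1.10 (SE 0.62, adjusted p = 0.331, 95% interval -0.26 to 2.45), which did not pass. The 3 antibody-positive lymph nodes had 209, 151 and 108, and the young lymph node 108.

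Cxcl13, the B-cell follicle chemokine (chr5:95956951-95961068), had values of 1.77, 3.37, 1.16 and 1.77 in kidney of mice H6, H20, H115 and H117, with at most 3 reads in each. In TLS of mice H6, H20 and H115 it had 26.3, 39.3 and 32.7, and in lymph node of mice H6, H20 and H117 it had 60.9, 52.1 and 65.6. The 3 tissues did not overlap, and the spread within TLS was smaller for Cxcl13 than for either ligand of CCR7. Taking 3 reads as the floor in kidney, Cxcl13 was at least 5.98-fold higher in TLS and, in lymph node, at least 10.97-fold (adjusted p = 4.61e-05 and 5.13e-07). Lymph node minus TLS was 0.85 (SE 0.32, adjusted p = 0.127, 95% interval 0.15 to 1.56) and did not pass.

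Cxcl12, a chemokine of stromal cells (chr6:117168535-117181367), had the smallest difference of the ligands between kidney and TLS. It had 4.42, 5.06, 4.64 and 8.87 in kidney of mice H6, H20, H115 and H117 and 16.1, 18.9 and 6.54 in TLS of mice H6, H20 and H115, from at most 5 reads in each kidney library. TLS of mouse H115 lay within the kidney range, and kidney minus TLS did not pass (-1.07, SE 0.37, adjusted p = 0.0752). It passed with the edgeR quasi-likelihood tests on all libraries (-1.66, adjusted p = 0.0452 with TMM scaling, and -1.59, adjusted p = 0.0439 with size factors), and with limma without TLS of mouse H115 (-1.495, adjusted p = 0.0104) and without kidney of mouse H117 (-1.26, adjusted p = 0.0490). In lymph node of mice H6, H20 and H117 Cxcl12 had 43.5, 31.3 and 34.0, all above TLS, with a difference of 1.43 (SE 0.40, adjusted p = 0.0361). That call was lost with the mouse as a block (1.11, adjusted p = 0.165) and without any one of TLS of mouse H115 or lymph node of mice H6, H20 or H117 (adjusted p between 0.0698 and 0.165).

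**Figure D1:**
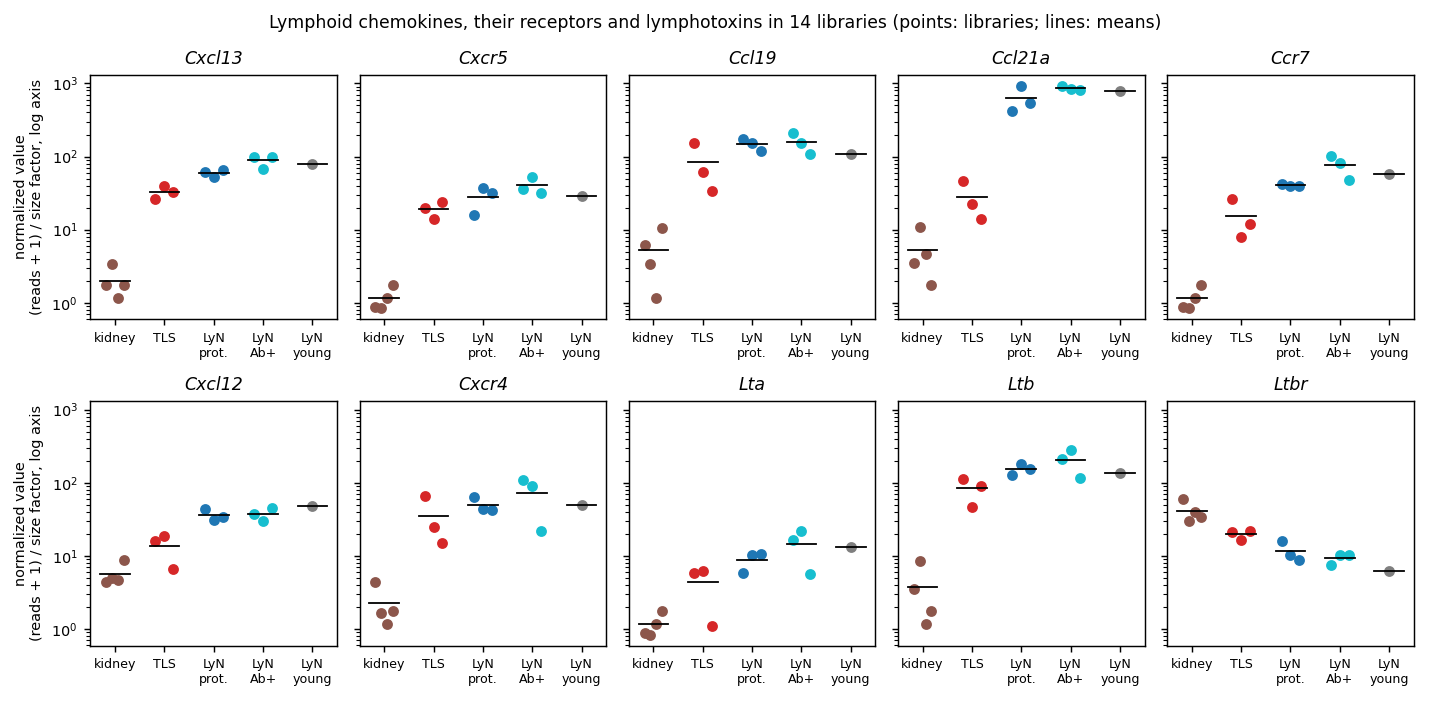
Normalized value of each of the 10 genes (log axis) in kidney, TLS and lymph nodes (LyN) of proteinuric (prot.), antibody-positive (Ab+) and young mice; points are libraries and lines are means. Ccl21a has TLS values of 14.2 to 46.6 against 419 to 930.3 in lymph nodes of proteinuric mice, whereas Ccl19 overlaps between these tissues and Ltbr runs the other way, with its highest values in kidney.

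The 3 chemokine receptors were at or next to 0 reads in kidney. Cxcr5, carried by follicular B cells and follicular helper T cells (chr9:44511787-44561877), had 0 reads in each of the 4 kidney libraries, values of 19.5, 14.1 and 24.0 in TLS of mice H6, H20 and H115 and of 15.9, 36.9 and 31.6 in lymph node of mice H6, H20 and H117. It was at least 3.44-fold higher in TLS than in kidney (adjusted p = 0.000121), and TLS and lymph node overlapped (difference 0.48, SE 0.37, adjusted p = 0.485, 95% interval -0.32 to 1.27). An exon of Cxcr5 overlaps one of Bcl9l on the opposite strand, whose value was between 1.45 and 9.51 in the 14 libraries. The counting strand is not given in the sources used here.

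Ccr7, the receptor for CCL19 and CCL21 on naive T cells and mature dendritic cells (chr11:99144196-99155077), also had 0 reads in each kidney library. In TLS it had 26.3 in mouse H6, 7.86 in mouse H20 and 11.99 in mouse H115, and in lymph node 42.0, 39.8 and 39.7 in mice H6, H20 and H117. Each lymph node was above each TLS library, and the 3 lymph nodes were close together. Ccr7 was at least 2.72-fold higher in TLS than in kidney (adjusted p = 0.000358), and lymph node minus TLS was 1.502 (SE 0.39, adjusted p = 0.0258). The latter call was lost with the mouse as a block (1.40, adjusted p = 0.0868) and without any one of the libraries of these 2 tissues other than TLS of mouse H6 (adjusted p between 0.0722 and 0.109).

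Cxcr4, the CXCL12 receptor found on most leukocytes (chr1:128588199-128592293), had values of 4.42, 1.69, 1.16 and 1.77 in kidney of mice H6, H20, H115 and H117. It reached 65.3, 25.2 and 15.3 in TLS of mice H6, H20 and H115 and 63.8, 43.6 and 42.1 in lymph node of mice H6, H20 and H117. TLS of mouse H6 was above each of these lymph nodes. Kidney minus TLS was -3.32 (SE 0.46, adjusted p = 0.000549), while lymph node minus TLS was 0.71 (SE 0.49, adjusted p = 0.431, 95% interval -0.36 to 1.78).

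Of the lymphotoxins, Ltb was abundant in TLS and lymph node and Lta was close to the floor. Ltb (chr17:35194439-35196320) had values of 3.54, 8.43, 1.16 and 1.77 in kidney of mice H6, H20, H115 and H117, of 114 in mouse H6, 47.2 in mouse H20 and 90.5 in mouse H115 in TLS, and of 129, 183 and 152 in lymph node of mice H6, H20 and H117. Kidney minus TLS was the largest difference of the members on the log2(value + 1) scale (-4.32, SE 0.48, adjusted p = 0.000145), and 94 of the 7382 genes tested had a larger change toward TLS, which put it at rank 95. This scale compresses genes at 0 reads, and in the edgeR and DESeq2 tests the fitted differences of Cxcl13, Cxcr5 and Ccr7 exceeded that of Ltb. Its TLS and lymph node libraries did not overlap, but the difference of 0.95 (SE 0.52, adjusted p = 0.309, 95% interval -0.17 to 2.07) did not pass. Lta (chr17:35203165-35205351), next to Ltb on the chromosome, had 0 reads in each kidney library, 6, 7 and 0 reads in TLS of mice H6, H20 and H115 and 3, 10 and 12 reads in lymph node of mice H6, H20 and H117. Its mean value was under 5, so that it was not tested between tissues of proteinuric mice. Its mean level in lymph node was 1.47-fold that of 3 reads in kidney, although lymph node of mouse H6 itself had 3 reads.

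Ltbr, the receptor for this complex on stromal and epithelial cells (chr6:125306571-125313885), was the one member with its highest values in kidney. It had values of 59.2, 30.4, 39.4 and 33.7 in kidney of mice H6, H20, H115 and H117, of 21.2, 16.5 and 21.8 in TLS of mice H6, H20 and H115, and of 15.9, 10.4 and 8.90 in lymph node of mice H6, H20 and H117. None of the 3 tissues overlapped. Kidney minus TLS was 0.96 (SE 0.32, adjusted p = 0.0672) and did not pass, but did with the mouse as a block (1.06, adjusted p = 0.0457). Lymph node minus TLS was -0.74 (SE 0.35, adjusted p = 0.232, 95% interval -1.49 to 0.02), and kidney minus lymph node was 1.70 (SE 0.32, adjusted p = 0.000978).

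Set together, 7 of the 9 members tested were DE between kidney and TLS, each higher in TLS (Cxcl13, Cxcr5, Ccl19, Ccl21a, Ccr7, Cxcr4 and Ltb). Among all 7382 genes tested, 14.7% were DE (differentially expressed) in this comparison, 8.62% higher in TLS and 6.07% higher in kidney, and the libraries of 25.4% did not overlap between the tissues. The median log2 difference of the members was -3.21, against 0.01 over all genes tested. Members with 0 reads in kidney passed the filter on low values through the other tissues, so this count is partly set by the filter, and with no filter 7 of 10 were DE. Without the 3 libraries with the most ribosomal RNA, 9 of 10 were DE, with Cxcl12 (-1.69, adjusted p = 0.00528) and Lta added.

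Between lymph node and TLS 3 of the 9 members tested were DE, each higher in lymph node (Ccl21a, Ccr7 and Cxcl12), where 10.6% of all genes tested were DE, 1.69% higher in lymph node and 8.87% higher in TLS. The libraries of 6 members did not overlap, as was the case for 26.8% of all genes tested. The median difference of the members was 0.95, against 0.04 over all genes tested. With the mouse as a block, with the edgeR quasi-likelihood or DESeq2 tests, or without the 3 libraries with the most ribosomal RNA, 1 member was DE, and the gene still called was Ccl21a. Between kidney and lymph node each of the 9 members tested was DE, 8 higher in lymph node and Ltbr higher in kidney, where 43.8% of all genes tested were DE, 20.8% higher in lymph node and 23.0% higher in kidney, and 48.8% did not overlap. The 2 kidney comparisons share their kidney libraries and are given side by side.

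**Figure D2:**
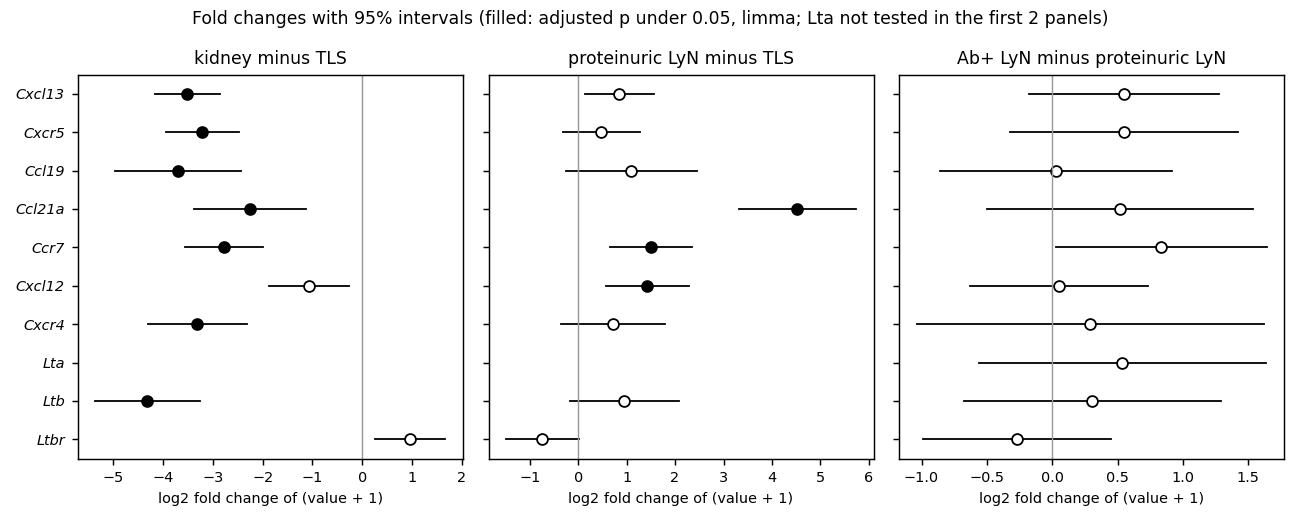
Log2 fold change of (value + 1) with its 95% interval from limma for each member, in kidney minus TLS, proteinuric lymph node (LyN) minus TLS, and antibody-positive (Ab+) minus proteinuric lymph node; filled points passed an adjusted p of 0.05. In the panel of lymph node minus TLS, Ccl21a stands at 4.52 and the other members tested lie between -0.74 and 1.502.

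Because longer genes collect more reads, levels of different genes were compared as normalized reads per kb of exon. In TLS Ccl19 had the highest mean level of the members at 94.5 ± 72.4 normalized reads per kb (SD, n = 3), followed by Ltb at 54.8 ± 22.5, Ccl21a at 31.0 ± 19.4 and Cxcl13 at 27.7 ± 5.69. Neighbours in this order overlapped in TLS down to Cxcr5, so the order of the leading genes was not separated by the libraries. In lymph node of proteinuric mice Ccl21a led at 721 ± 308 (n = 3), then Ccl19 at 171 ± 31.3, Ltb at 101 ± 18.0 and Cxcl13 at 50.8 ± 5.95, and here none of these neighbours overlapped. In kidney Ltbr led at 16.8 ± 5.56 (n = 4), above the range of each other member, and Cxcr5, Ccr7 and Lta had 0 reads. Cxcl12 had the lowest mean per kb in TLS (1.58 ± 0.81, n = 3), where it overlapped with Lta. It was also lowest in lymph node (4.30 ± 0.75, n = 3), where it overlapped with Ltbr, Lta and Cxcr5. This place depends on its exon length, 8176 bases over all annotated exons, against 3332 for Cxcr5, the next longest member. Without scaling by length, the mean value of Cxcl12 was above that of Lta in TLS (13.8 against 4.44) and in lymph node (36.2 against 8.91).

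The exchange of rank between the ligands of CCR7 was present in each single library of TLS and lymph node. The ratio of Ccl21a to Ccl19 per kb was 0.299, 0.362 and 0.399 in TLS of mice H6, H20 and H115. In lymph node of mice H6, H20 and H117 it was 2.41, 6.03 and 4.47, in the antibody-positive lymph nodes 4.33, 5.53 and 7.59, and in the young lymph node 7.31. Thus Ccl19 exceeded Ccl21a in the 3 TLS libraries and Ccl21a exceeded Ccl19 in the 7 lymph node libraries. This ratio was singled out after its values were seen, and no test of it was made. Kidney libraries had at most 12 reads of either gene and give no usable ratio.

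**Figure D3:**
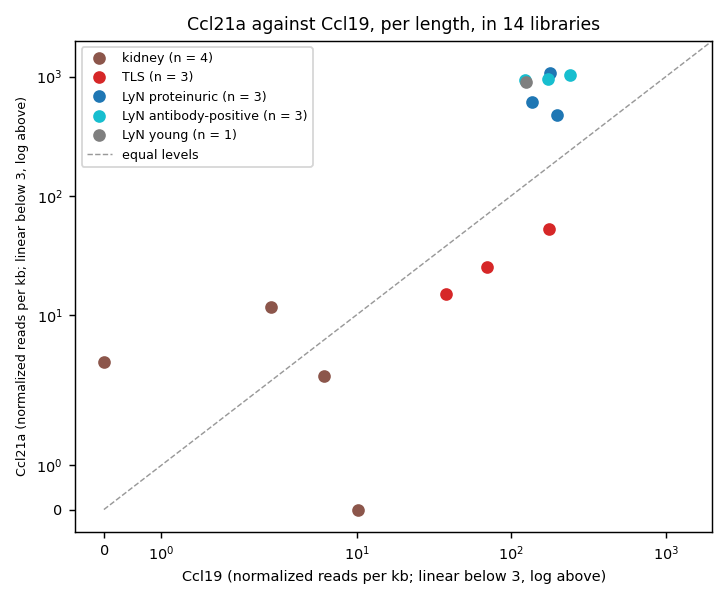
Ccl21a against Ccl19 in normalized reads per kb of exon (both axes linear below 3 and logarithmic above), each point a library; LyN, lymph node. The 3 TLS points lie below the line of equal levels, at ratios of 0.299 to 0.399, and the 7 lymph node points above it, at 2.41 to 7.59.

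Both genes have near-identical copies that the counting may have split. Ccl19 shares 13.8% of the 50-base words of its transcripts with Ccl19-ps1, 30.1% with Ccl19-ps3, 21.8% with Gm12407 and 52.0% with Gm2564. Ccl21a shares 30.8% with Ccl21b and with Gm10591, 70.5% with Gm13304 and 71.6% with Gm21541. The copies of Ccl21a held between 0 and 31 reads per library, but those of Ccl19 held 136, 105 and 211 reads in lymph node of mice H6, H20 and H117, beside 119, 162 and 147 reads on Ccl19 itself. In TLS of mice H6, H20 and H115 the copies held 81, 53 and 4 reads beside 180, 77 and 30. With the reads of the copies added, the Ccl21a to Ccl19 ratio of the values was 0.218, 0.244 and 0.400 in TLS of mice H6, H20 and H115 and 1.17, 3.75 and 1.91 in lymph node of mice H6, H20 and H117. Ccl19 then differed by 1.64 between lymph node and TLS (adjusted p = 0.226) and by -2.96 between kidney and TLS (adjusted p = 0.0155), so its calls were the same. The levels of Ccl19 and Ccl21a are therefore uncertain by the share of these copies.

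Of the pairs of ligand and receptor, Ltb over Ltbr and Ccl21a over Ccr7 differed between TLS and lymph node with no overlap, and the other 3 pairs overlapped. No test of these ratios was made. Ltb, Ltbr, Ccl21a and Ccr7 each did not overlap singly either, as was the case for 26.8% of all genes tested. Ltb over Ltbr per kb was 8.67, 4.58 and 6.70 in TLS of mice H6, H20 and H115 and 13.7, 29.8 and 29.0 in lymph node of mice H6, H20 and H117, with no overlap. In the antibody-positive lymph nodes it was 50.1, 45.8 and 19.2, and in kidney of mouse H20, the kidney library with more than 3 reads of both genes, it was 0.399. Ccl21a over Ccr7 was 4.09, 7.07 and 2.73 in TLS of mice H6, H20 and H115 and 23.4, 54.4 and 31.3 in lymph node of mice H6, H20 and H117. Ccl19 over Ccr7 overlapped, at 13.7, 19.5 and 6.84 in TLS and 9.70, 9.01 and 6.99 in lymph node in the same order. Cxcl13 over Cxcr5 also overlapped, at 3.95, 8.35 and 4.00 in TLS of mice H6, H20 and H115 and at 11.9, 4.12 and 6.10 in lymph node of mice H6, H20 and H117. Cxcl12 over Cxcr4 was 0.0524, 0.164 and 0.0851 in TLS and 0.149, 0.157 and 0.178 in lymph node of the same order of mice, which also overlapped. The size of these ratios depends on the exon length used for Cxcl12.

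Kidney and TLS of the same animal could be compared in 3 mice. TLS minus kidney was 3.30, 3.204 and 3.96 for Cxcl13 in mice H6, H20 and H115, 4.43, 3.83 and 4.01 for Ccl19, and 4.67, 2.35 and 5.41 for Ltb. For Ccl21a it was 3.39 in mouse H6, but 0.99 in mouse H20 and 1.43 in mouse H115, so the difference was largest in mouse H6. Ltbr was lower in TLS in each of the 3 mice, with differences of -1.44, -0.84 and -0.83. Lymph node and TLS could be paired in mice H6 and H20 only. Lymph node minus TLS was 3.14 and 5.29 for Ccl21a in these mice, 0.66 and 2.20 for Ccr7, 0.18 and 1.32 for Ccl19, and -0.03 and 0.77 for Cxcr4. Mouse H6 had the smaller difference for these 4 genes and for Ltb (0.17 and 1.93), but the larger one for Cxcl13 (1.18 and 0.40) and Cxcl12 (1.38 and 0.70). Ltbr was lower in lymph node than in TLS in both mice (-0.39 and -0.62). TLS of mouse H6 had the highest values of Ccl19, Ccl21a, Ccr7, Cxcr4 and Ltb among TLS.

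**Figure D4:**
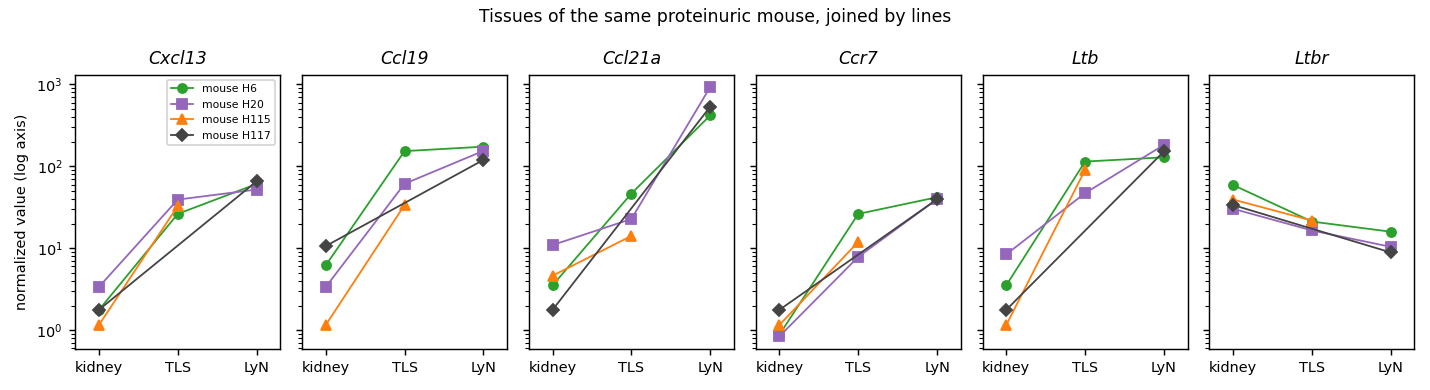
Normalized values (log axis) of Cxcl13, Ccl19, Ccl21a, Ccr7, Ltb and Ltbr in kidney, TLS and lymph node (LyN) of proteinuric mice, with lines joining tissues of 1 mouse. Each mouse with TLS rises from kidney to TLS for the first 5 genes and falls for Ltbr; mouse H117 had no TLS library and mouse H115 no lymph node library.

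Of 56 other pathway genes in 6 lists, 49 were in the table and 32 were tested between kidney and TLS. There, 12 were DE, each higher in TLS, with a median difference of -1.16 over the 32 genes, where 14.7% of all genes tested were DE and 8.62% were higher in TLS. In the list of LTBR and NF-kB signalling 1 of 9 genes tested was DE, a share near that over all genes. It was Birc2, with 7.00 ± 3.49 in kidney (n = 4) and 18.3 ± 0.77 in TLS (SD, n = 3). Relb and Nfkb2, subunits of the NF-kB arm that LTBR signals through, did not pass (adjusted p = 0.110 and 0.177). In the list of leukocyte chemotaxis signalling 4 of 7 were DE, led by Rac2 (-2.81, adjusted p = 0.00102), Coro1a (-2.70, adjusted p = 0.00207) and Dock2 (-2.10, adjusted p = 0.00122), which link chemokine receptors to actin. Among positioning cues S1pr4 (-1.71) and S1pr1 (-1.26), receptors for sphingosine-1-phosphate, were DE. Of related TNF-family genes 2 of 3 were DE (Tnfrsf14 and Tnfrsf1b), and of scavenger receptors and other homing chemokines 1 of 3 (Ccr6). Without TLS of mouse H6, Birc2, S1pr4, S1pr1, Tnfrsf14, Tnfrsf1b and Ccr6 each lost the call (adjusted p between 0.0698 and 0.156), and 5 of the pathway genes were DE. Single libraries also ended the call of Birc2 (kidney of H115 or TLS of H20), S1pr1 (kidney of H115 or H117, or TLS of H20), Tnfrsf14 (kidney of H6 or H115, TLS of H20 or lymph node of H20), Tnfrsf1b (kidney of H115 or H117) and Ccr6 (TLS of H20), with adjusted p between 0.0506 and 0.0978. Without the 3 libraries rich in ribosomal RNA Birc2 (adjusted p = 0.0666), S1pr1 (0.0588) and Tnfrsf1b (0.0779) were not DE. Tnfrsf1b was not DE in the edgeR or DESeq2 tests either (adjusted p between 0.0556 and 0.0764), and S1pr1 was not with the mouse as a block (-1.14, adjusted p = 0.0645).

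Glycam1, a mucin of high endothelial venules, where lymphocytes enter a lymph node, was the 1 of 5 stromal and venule genes that was DE between kidney and TLS. It had values of 0.884, 5.90, 1.16 and 1.77 in kidney of mice H6, H20, H115 and H117 and 272, 152 and 125 in TLS of mice H6, H20 and H115. In lymph node of mice H6, H20 and H117 it had 1599.8, 1699 and 1765. Like Ccl21a it took both steps, with kidney minus TLS of -5.87 (SE 0.46, adjusted p = 2.88e-05) and lymph node minus TLS of 3.28 (SE 0.49, adjusted p = 0.000861), and each call passed in every alternative tried. Chst4, an enzyme of the same venules, had no read in the TLS or kidney libraries and at most 8 reads in a lymph node of proteinuric mice. It was too low to be tested.

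Between lymph node and TLS 5 of the 32 pathway genes tested were DE, beside 10.6% of all genes tested (1.69% higher in lymph node and 8.87% higher in TLS). Glycam1 and Klf2 (1.77, adjusted p = 0.0182), a factor that keeps T cells circulating, were among those higher in lymph node. Ackr3, a scavenging receptor of CXCL12, and Pdpn, a protein of reticular fibroblasts and podocytes, were higher in TLS. Ackr3 had 17.7, 18.6, 15.1 and 10.6 in kidney of mice H6, H20, H115 and H117, 6.78, 10.2 and 7.63 in TLS of mice H6, H20 and H115, and 2.90, 2.84 and 0.809 in lymph node of mice H6, H20 and H117, opposite to Cxcl12 itself. It was at least 1.68-fold higher in TLS than in lymph node (adjusted p = 0.0147), a call lost without TLS of mouse H20 or lymph node of mouse H117 (adjusted p = 0.0637 and 0.0659) and in a fit of these 2 tissues alone (adjusted p = 0.103). Pdpn (14.01 ± 3.24 in TLS and 3.52 ± 0.99 in lymph node, SD, n = 3) lost its call without any one of the 6 libraries of these tissues (adjusted p between 0.0563 and 0.119). With the mouse as a block 3 of the 32 genes were DE, and Klf2 (adjusted p = 0.0723) and Pdpn (adjusted p = 0.101) were not. Klf2 was also not DE without TLS of mouse H115 (adjusted p = 0.0855) or lymph node of mouse H117 (adjusted p = 0.0823), nor without the 3 libraries rich in ribosomal RNA (adjusted p = 0.147). The scavenger receptor Ackr1 had no read in the TLS or kidney libraries. It had only 0, 1 and 3 reads in lymph node of mice H6, H20 and H117, so these levels are at the floor and do not separate the tissues.

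Between kidney and lymph node 22 of the 32 pathway genes were DE, 21 higher in lymph node and Ackr3 higher in kidney, beside 43.8% of all genes tested DE, 20.8% higher in lymph node and 23.0% higher in kidney. In the LTBR and NF-kB list 6 of 9 were higher in lymph node, led by Nfkb2 (-2.06, adjusted p = 0.0167), Birc3 (-1.98, adjusted p = 0.00514) and Nfkb1 (-1.83, adjusted p = 0.0126). Nfkb2 and Nfkb1 lost the call without lymph node of mouse H117 (adjusted p = 0.0735 and 0.0508), and Nfkb2 also without that of mouse H20 (adjusted p = 0.0576). Of the chemotaxis list 6 of 7 were higher in lymph node.

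Of the cells that could carry or make these transcripts, markers of immune cells had higher sums in TLS and lymph node than in kidney. Markers of endothelium and of fibroblasts and pericytes did not follow the same course. The part of these cells in the results was not tested. Over 7 B-cell markers the summed normalized reads were 0 to 23.6 in kidney, 348 to 500 in TLS and 645 to 931 in lymph node of proteinuric mice, and over 7 T-cell markers 0 to 12.7, 137 to 265 and 496 to 538. Each of the 7 B-cell and 7 T-cell markers was DE between kidney and TLS, and between lymph node and TLS 5 T-cell and 0 B-cell markers were higher in lymph node. The 3 lymphatic endothelium markers in the table summed to 0.786 to 1.09 in TLS and 4.35 to 14.6 in lymph node. These are so few reads that no list member was tested between the tissues. Prox1, a member of this list, had no read in the lymph node libraries but was read in TLS. In TLS the sum of the whole list amounted to a single read per library, so Prox1 does not separate the tissues. By staining, the paper describes thin vessels positive for LYVE1 in TLS. The 5 endothelium markers summed to 24.8 to 69.0 in kidney, 31.6 to 57.7 in TLS and 52.2 to 103 in lymph node, with none DE. The 6 markers of fibroblasts and pericytes summed to 10.6 to 164 in kidney, 190 to 213 in TLS and 73.9 to 135 in lymph node. Of these 6, 1 was DE between kidney and TLS, higher in TLS, and 0 between lymph node and TLS. Dendritic cell markers summed to 0 to 5.90 in kidney, 15.3 to 53.4 in TLS and 24.6 to 93.9 in lymph node. The 6 macrophage markers summed to 79.9 to 376 in kidney, 384 to 934 in TLS and 638 to 1034 in lymph node, and 4 plasma cell markers to 28.4 to 94.6, 267 to 761 and 487 to 1172.

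Markers of kidney epithelium were present in the TLS libraries. Over 7 nephron markers the sums were 5772 to 17969 in kidney, 1641 to 7454 in TLS and 0 to 1.89 in lymph node. Of the 7, 6 were DE between lymph node and TLS, and 2 were DE between kidney and TLS, higher in kidney. Over 5 urothelium markers they were 0 to 20.9 in kidney, 129 to 731 in TLS and 0 in lymph node, and over 5 adipocyte markers 31.9 to 77.7, 44.7 to 453 and 165 to 1966. Between the tissues Ltbr ran in the order of the nephron markers, highest in kidney and lowest in lymph node. Within kidney it did not, as mouse H6 had the lowest nephron sum (5772) and the highest Ltbr (59.2). The part of these cells in the levels of the members was not tested.

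Lymph nodes of antibody-positive mice held reads of each of the 10 genes. Between lymph nodes of antibody-positive and proteinuric mice 0 of 10 members passed, as did 0 of the 6810 genes tested (0.00%; limma). The edgeR and DESeq2 tests also called no member. At an unadjusted limma p under 0.05 there were 215 of the 6810 genes, no more than such a threshold passes without any difference. Among them was 1 member. That member was Ccr7, with 102, 80.9 and 47.0 in antibody-positive and 42.0, 39.8 and 39.7 in proteinuric mice H6, H20 and H117 (difference 0.83, unadjusted p = 0.0440, adjusted p = 0.998, 95% interval 0.03 to 1.64). Ccr7 and Cxcl13 (99.2, 67.5 and 98.7 against 60.9, 52.1 and 65.6) did not overlap between the groups, as was the case for 8.58% of all genes tested. The 95% intervals were wide, from -0.50 to 1.54 for Ccl21a and from -1.04 to 1.62 for Cxcr4. The groups also differed in the RNA kit, miRNeasy for antibody-positive and TRIzol for proteinuric mice, and in age, which cannot be told apart from the disease stage here.

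In the young lymph node, a single library without a test, 8 of the 10 members lay within the range of the other 6 lymph nodes. Cxcl12 (48.3) was above that range and Ltbr (6.26) below it. At 4 weeks Ccl21a was thus already at 788, Ltb at 135, Ccl19 at 108 and Cxcl13 at 79.6.

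The genes whose pattern over the 14 libraries was closest to a member, by the root mean square (RMS) difference of centred log2(value + 1) over 7155 genes, give a last description. For Cxcl13 they were Cd3g (0.302), Lax1 (0.361) and Fcrla (0.468), against an RMS of 2.03 for Cxcl13 about its own mean. For Ccl19 they were Slpi (0.438), Lax1 (0.515) and Tbc1d10c (0.520), and for Ltb they were Cd3g (0.477), Cd79b (0.490) and Cd79a (0.495). For Ccl21a the nearest genes, Marco (1.17), Cd209b (1.195) and Timd4 (1.203), were farther away, against an RMS of 3.203 for Ccl21a itself. Marco and Cd209b are known from macrophages of lymph node sinuses.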

How the data were processed

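RNA of the 14 tissue libraries was poly(A)-selected and sequenced on an Ion Torrent PGM, and the authors trimmed adaptors and mapped the reads to GRCm38 with CLC Genomics Workbench. Their deposited table holds a normalized signal per gene. The signal times the size factor was whole in 100% of values (tolerance 0.001), and equalled reads plus 1, so reads were recovered. The whole-kidney samples were not analysed here.

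Kidney, TLS and lymph node of proteinuric mice entered 1 fit of 10 libraries (limma 3.58.1, trend and robust, R 4.3.3) on the log2(value + 1) scale. It held the 7382 genes whose mean reached 5. Antibody-positive and proteinuric lymph nodes (6810 genes) had a fit of their own. Genes with a Benjamini-Hochberg adjusted p under 0.05 over all genes tested were called DE. Fold changes on this scale understate the change of low genes. Where each library of a group had at most 3 reads, the fold is a bound. It sets the mean of the other group against 3 reads in the low group's library with the smallest size factor. Members and lists were chosen with earlier results of these data known. All members are named, and of each pathway list at most the 3 DE genes with the largest change, plus genes singled out after their values were seen (Ackr1, Ackr3, Chst4, Relb and Nfkb2). 1 gene of the lists is not reported here. Gene positions and exon lengths are those of GENCODE M21, with the length taken over all annotated exons of a gene.

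Equal mouse numbers mark tissues of the same animal. The correlations of deviations from the tissue means were 0.351, 0.364 and 0.454 for kidney and TLS of 1 mouse, -0.335 to 0.202 for kidney and lymph node, and -0.266 and 0.025 for TLS and lymph node. Alternatives were the mouse as a replicate block, edgeR 4.0.16 and DESeq2 1.42.0 on the recovered reads, other filters and pseudocounts, and leaving out libraries. Adding the copies of Ccl19 and Ccl21a, and leaving out the 3 libraries with the most ribosomal RNA, were chosen after seeing the data. On simulated data for kidney versus TLS (7178 genes, 200 changed by 3 on the log2 scale), limma recovered 65.0% with 4.41% of calls false. DESeq2 recovered 74.5% with 14.9% false. The simulation used a common spread for all genes and independent libraries. It therefore does not give the false calls for tissues of the same mouse or for a spread that differs by gene. The p-values rest on 3 or 4 animals per group, with a spread pooled over all libraries of a fit and moderated over genes. Tissues of the same mouse entered the main fit as independent libraries.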

Additional observations from a re-analysis of the deposited data

Results flagged for a closer look

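Cxcl12 in kidney of mouse H117 stood apart from the other 3 kidney libraries (8.87 against 4.42, 5.06 and 4.64). The gap to the nearest library was 0.856 of the whole range of the 4 libraries, above Dixon's critical value for a group of 4. It rests on 4 reads in the library with the smallest size factor, beside 4, 5 and 3 reads in mice H6, H20 and H115. About 1 in 20 such groups is expected to pass this limit by chance, and 10 genes were examined.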

How the results depend on the processing

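Depth limits these results: where each kidney library had at most 3 reads a fold against kidney is given as a bound, and fold changes of other low members, such as Cxcr4 with at most 4 reads, are understated on the log2(value + 1) scale. Between lymph node and TLS, 3 members were DE and 1 (Ccl21a) under edgeR's quasi-likelihood test (1 with either scaling, TMM or size factors), the DESeq2 Wald test (1), the mouse as a replicate block (1), a fit of only these 2 tissues (1) or without the 3 libraries with the most ribosomal RNA reads (1); leaving out single libraries gave 1 to 3. Of the other pathway genes between lymph node and TLS, 5 were DE, against 8 with no filter, 3 when a mean of 10 was required, 3 with the replicate block and 2 to 8 without single libraries. Of these genes between kidney and TLS, 12 were DE, against 7 when a mean of 10 was required, 7 in a fit of only these 2 tissues and 5 to 15 without single libraries (5 without TLS of mouse H6). Between kidney and lymph node 22 were DE, against 13 when a mean of 10 was required. A higher filter and a fit of 2 tissues test fewer genes or use fewer samples; otherwise the cause was not tested.

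Between antibody-positive and proteinuric lymph nodes, where no member passed in any alternative, the sign of 3 small differences turned. Ccl19 (0.03) became -0.035 with the quasi-likelihood test and TMM and -0.058 with DESeq2, and ranged from -0.21 (without antibody-positive replicate 1) to 0.27 without single libraries. Cxcl12 (0.05) became -0.0096 and -0.029 in these tests and ranged from -0.092 (without antibody-positive replicate 3) to 0.20, and Cxcr4 (0.29) ranged from -0.13 (without antibody-positive replicate 1) to 1.00. Of the alternatives for single genes, 1385 values kept direction and side of the threshold, 77 kept direction but no longer passed and 6 newly passed. The replicate block changed, beside the calls of members, Klf2 and Pdpn given above, those of S1pr1 between kidney and TLS (-1.14, adjusted p = 0.0645) and of Icam1 between kidney and lymph node (-1.26, adjusted p = 0.0560), and no other call. Without the 3 libraries rich in ribosomal RNA Icam1 was also not DE (adjusted p = 0.0849).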
